A study of Mus musculus with 2 samples.

Results

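The 10 genes described here build the MHC class I route of antigen presentation: the heavy chains H2-D1, H2-K1 and H2-T23, the light chain B2m, the peptide transporter subunits Tap1 and Tap2, the loading factor Tapbp, the immunoproteasome subunits Psmb8 and Psmb9, and the transactivator Nlrc5. They were chosen by gene symbol, and all 10 were found among the 53717 features of the gene lists. Their levels were read in single cells from hippocampi of 5xFAD mice, transgenic animals that develop amyloid plaques. In the NeuroD1 group the mice had received AAV9-GFAP::NeuroD1-P2A-GFP, a vector whose GFAP promoter drives the proneural factor NeuroD1 together with GFP mainly in astrocytes. In the GFP group they had received AAV9-GFAP::GFP, which carries the reporter alone, so that both groups share the 5xFAD transgenes, the virus, the promoter and GFP. Each group was 1 library from 3 mice, taken 3 weeks after injection and labelled with a time of 6 months, and the files hold no map from cells to mice. With 1 library per group there was no replicate and no test between groups. All 95% intervals cover counting error only, and every difference below is one between these libraries.

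Class I molecules show peptides from the cell's own proteins to CD8 T cells and NK cells. The proteasome cuts the peptides, the Tap1 and Tap2 transporter carries them into the endoplasmic reticulum, tapasin (Tapbp) helps to load them, and heavy chain, B2m and peptide leave together for the cell surface. Interferons raise most of these genes, and neurons and glia of the healthy brain are known for low levels while vessel and immune cells have high ones.

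The class I heavy chain promoters are known for a compact set of regulatory elements. Those of H2-D1, H2-K1 and B2m are shown because most member UMIs come from these genes, and that of Tap1, shared with Psmb9, to set beside them. RefSeq promoter entries of build GRCm38.p6, each running from 250 bases before to 50 after an annotated start, were found for 8 of the 10 members, with 2 entries for H2-K1. Entries for Tap2 and Nlrc5 were not found. In the stretches below, written 5′ to 3′ on the gene's strand, capitals mark 4 motifs searched on both strands: GGGANNNNCC (NF-kappaB type), AANNGAAA (the IRF core, seen as TTTCNNTT on the other strand), TGACG (X2 or CRE type) and CCAAT (seen as ATTGG on the other strand). The B2m stretch lies at chr2:122147545-122147643 on the plus strand, H2-K1 at chr17:34000354-34000463 on the minus strand, H2-D1 at chr17:35262918-35263050 on the plus strand and Tap1 at chr17:34187329-34187479 on the plus strand.
B2m: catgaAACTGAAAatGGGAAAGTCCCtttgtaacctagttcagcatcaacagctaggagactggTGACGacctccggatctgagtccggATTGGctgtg
H2-K1: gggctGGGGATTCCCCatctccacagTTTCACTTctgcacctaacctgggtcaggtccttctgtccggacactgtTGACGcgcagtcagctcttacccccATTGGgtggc
H2-D1: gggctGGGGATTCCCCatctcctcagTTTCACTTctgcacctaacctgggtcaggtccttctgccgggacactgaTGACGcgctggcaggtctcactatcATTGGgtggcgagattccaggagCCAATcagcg
Tap1: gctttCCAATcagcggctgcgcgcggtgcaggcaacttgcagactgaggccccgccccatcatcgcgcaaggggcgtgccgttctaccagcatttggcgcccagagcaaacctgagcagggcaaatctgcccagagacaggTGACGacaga
All 4 motifs stood together in 4 of the 9 member entries, those of B2m, H2-D1 and both of H2-K1, and in 94 of 32851 entries in all (0.286%). Singly the motifs are common: GGGANNNNCC was in 20.7% of all entries, AANNGAAA in 23.9%, TGACG in 20.8% and CCAAT in 37.4%. Upstream of H2-K1 and H2-D1, 174 of 190 aligned bases were identical (91.6%). The Tap1 and Psmb9 entries face away from each other and share 275 of their 300 bases, and this window held TGACG and CCAAT but neither of the other motifs. The IRF core was also in the H2-T23 entry, while the Psmb8 entry held none of the 4. Because the GGGANNNNCC match in the H2-D1, H2-K1 and B2m entries reads on both strands, it was found at overlapping positions. The letters were chosen after the sequences were seen, and a match is a description of the sequence only.

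The NeuroD1 library held 13402 barcodes and 51236521 UMIs, the GFP library 11739 barcodes and 17504950 UMIs. Filters left 12786 and 11079 cells, at a median depth of 2556 UMIs per cell in the NeuroD1 library, against 1168 in the GFP library. The libraries shared 99 cell barcodes. Cells were grouped by marker genes into 14 named classes and 1 unnamed cluster of 4 and 555 cells, led by neuronal genes although 13 of 14 microglia markers were raised in it. Sex-linked RNA separated the libraries: Xist was at 0.0390 CPM in the NeuroD1 library, against 105 CPM in the GFP library, while Ddx3y of the Y chromosome was at 69.6 and 0.0571 CPM, so that sex and vector cannot be told apart. The targeted gene does not check the labels here: Neurod1 was at 7.40 CPM in the NeuroD1 library, against 5.08 CPM in the GFP library, ND1, a feature of the vector, had 0 UMIs in either library, and vector GFP had 649 UMIs in the NeuroD1 library, against 26630 in the GFP library. In astrocyte-like cells the red cell gene Hba-a1 was at 3661 CPM in the NeuroD1 library, against 3.39 CPM in the GFP library, and its part in the class I differences was not tested. Heavy chain genes are related in sequence, and it is not given how reads that match several of them were counted. Gapdh, which has many processed copies in the mouse genome, had 13 UMIs in microglia-like cells of the NeuroD1 library and 45 in those of the GFP library, against 15689 and 24443 for Actb. The split of reads between H2-D1, H2-K1, H2-T23 and the related heavy chain genes is therefore uncertain.

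Class I RNA was highest in lymphocyte-like, myeloid and endothelial cell-like cells of both libraries. Levels are given as CPM, UMIs per 1000000 UMIs of the class. Summed over the 10 members, T or NK lymphocyte-like cells stood at 17739 CPM in the NeuroD1 library, against 17779 CPM in the GFP library. Border macrophage or monocyte-like cells, which also had class II genes and S100a8 among their leading genes, stood at 8451 and 10241 CPM. Endothelial cell-like cells had 7321 CPM in the NeuroD1 library, against 12371 CPM in the GFP library, microglia-like cells 5542 and 12773 CPM, and pericyte-like cells 4322 and 5802 CPM. Smooth muscle cell-like cells, also of the vessel wall, were lower, at 884 and 1557 CPM. In the same low range were astrocyte-like cells with 528 and 2128 CPM, choroid plexus epithelium-like cells with 491 and 878 CPM, neuron-like cells with 386 and 1028 CPM and oligodendrocyte-like cells with 279 and 2184 CPM. In the NeuroD1 library 100 immature neuron-like cells had 226 CPM, and 30 such cells of the GFP library had 927 CPM. The lymphocyte-like class was small, at 61 and 123 cells, and also had the B-lineage gene Igkc among its leading genes. Other classes compared had at least 100 cells in each library, and the lymphocyte-like class was added after its values were seen.

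For 8 of the 10 members the highest level in each library was in T or NK lymphocyte-like cells, for Nlrc5 on only 1 and 6 UMIs and for Tap1 on 10 and 18. The exceptions in the NeuroD1 library were Tapbp, highest in endothelial cell-like cells at 174 CPM, and Tap2, highest in pericyte-like cells at 148 CPM. In the GFP library they were B2m, highest in microglia-like cells at 5314 CPM, and again Tap2 in pericyte-like cells at 159.6 CPM. Some of these leads over endothelial cell-like cells were narrow. In the NeuroD1 library H2-T23 led at 238 CPM on 27 UMIs, against 221 CPM, and Tap2 at 148 CPM, against 142 CPM. In the GFP library Tapbp led at 164 CPM on 21 UMIs, against 152 CPM. Among classes where a gene had 20 or more UMIs, whose number differs between genes, the distance from the highest to the lowest class differed widely between members. Psmb8, the immunoproteasome subunit LMP7, spanned 476-fold in the NeuroD1 library, against 53.9-fold in the GFP library. H2-D1 spanned 184-fold and 44.0-fold, H2-K1 94.9-fold and 27.3-fold, H2-T23 91.5-fold and 16.1-fold, and B2m 50.7-fold and 15.6-fold. Tapbp spanned only 9.11-fold in the NeuroD1 library, against 6.41-fold in the GFP library, and Tap2 23.3-fold and 22.8-fold. Tapbp thus had a narrower span than the 3 heavy chains and Psmb8 in both libraries, whereas the span of Tap2 in the GFP library was wider than that of H2-T23.

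**Figure D1:**
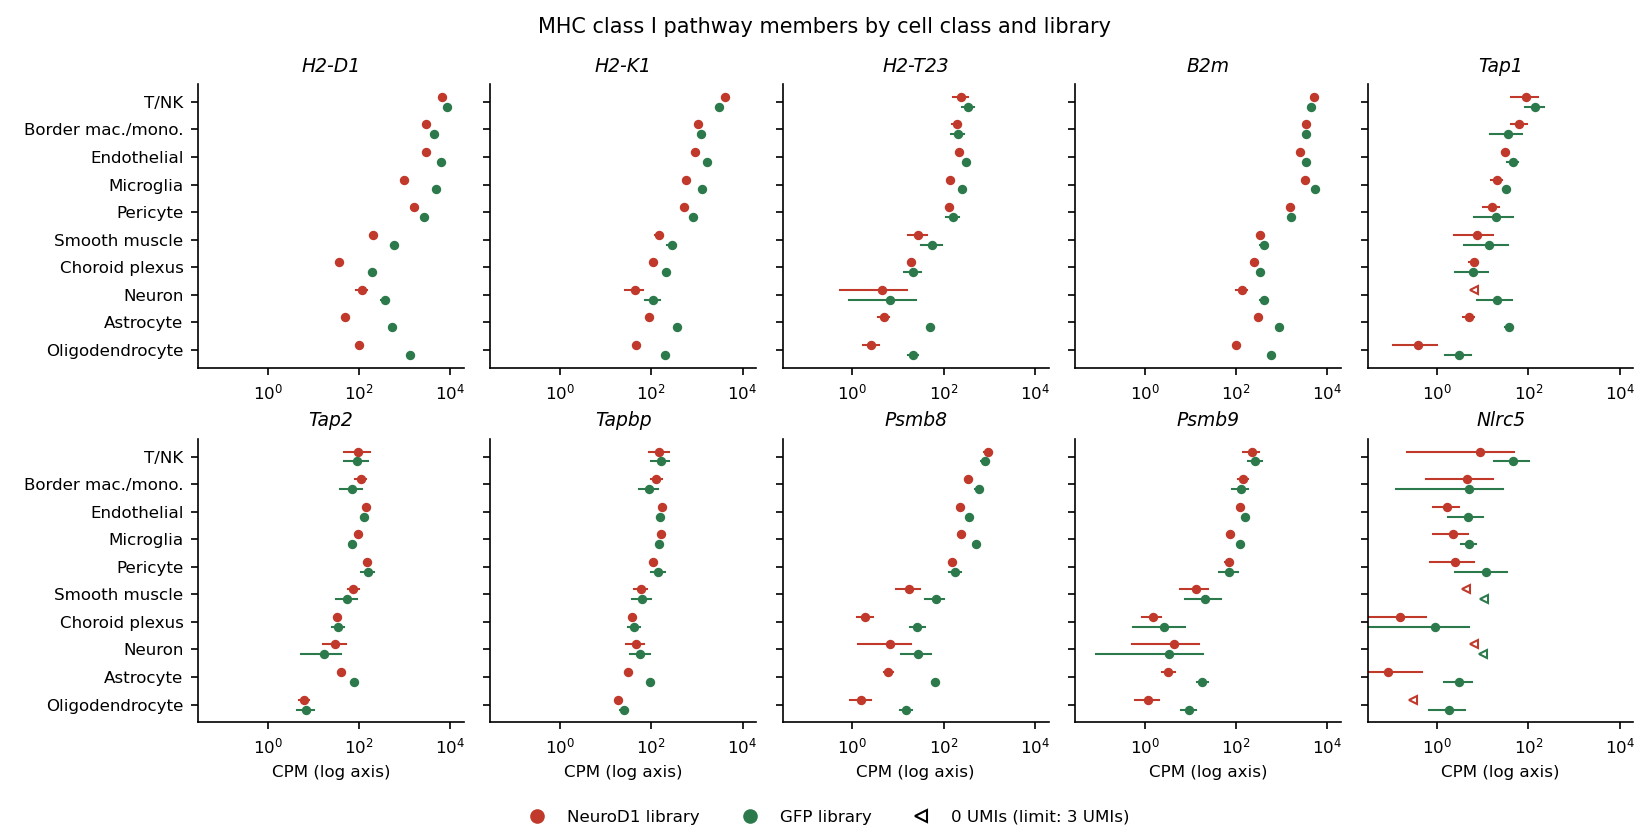
Level of each member in CPM (log axis) in 10 cell classes of the NeuroD1 (red) and GFP (green) libraries; bars are exact Poisson 95% intervals and open triangles mark 0 UMIs, drawn at the limit of 3 UMIs. The green points lie right of the red ones for H2-D1 in all 10 classes, while the intervals of Tap2 and Tapbp meet in most classes.

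The order of the classes for single members shows which neighbours can be told apart at this depth. For H2-D1 in the NeuroD1 library, T or NK lymphocyte-like cells came first at 6708 CPM, followed by endothelial cell-like cells at 2954 and border macrophage or monocyte-like cells at 2939 CPM, whose intervals overlapped. Pericyte-like cells at 1648 CPM and microglia-like cells at 959.6 CPM came next and were separate from their neighbours. Smooth muscle, oligodendrocyte precursor, neuron, oligodendrocyte and immature neuron-like cells ran from 204 down to 70.3 CPM, each overlapping the next. In the GFP library microglia-like cells ranked next for H2-D1, behind endothelial cell-like cells, at 5001 CPM, above border macrophage or monocyte-like cells at 4426 CPM, and oligodendrocyte-like cells at 1314 CPM stood above smooth muscle, astrocyte and neuron-like cells. For B2m in the NeuroD1 library, border macrophage or monocyte-like cells at 3469 CPM and microglia-like cells at 3262 CPM overlapped, behind lymphocyte-like cells at 5168 CPM. In the GFP library microglia-like cells led for B2m at 5314 CPM, followed by T or NK lymphocyte-like cells at 4398 CPM. For Psmb8 in the NeuroD1 library, microglia-like cells at 235 CPM and endothelial cell-like cells at 227 CPM overlapped.

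Because class sizes and levels both differed, the pathway's RNA sat in different cells in each library. Endothelial cell-like cells held 49.3% of all member UMIs in the NeuroD1 library (interval 49.0 to 49.6), against 13.9% in the GFP library (interval 13.7 to 14.1), while they made up 16% and 9.11% of cells. Microglia-like cells held 16.9% (interval 16.7 to 17.2) in the NeuroD1 library, against 63.5% (interval 63.2 to 63.8) in the GFP library, at 9.99% and 33.5% of cells. Astrocyte-like cells, the target of the vector, were 28.7% and 19.5% of cells and held 6.99% and 5.49% of member UMIs. T or NK lymphocyte-like cells held 2.25% of member UMIs in the NeuroD1 library, against 1.99% in the GFP library with only 0.477% and 1.11% of the cells. The share of a class follows its cell number, its RNA content and its class I level, and cell numbers after dissociation need not follow those in the tissue.

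**Figure D2:**
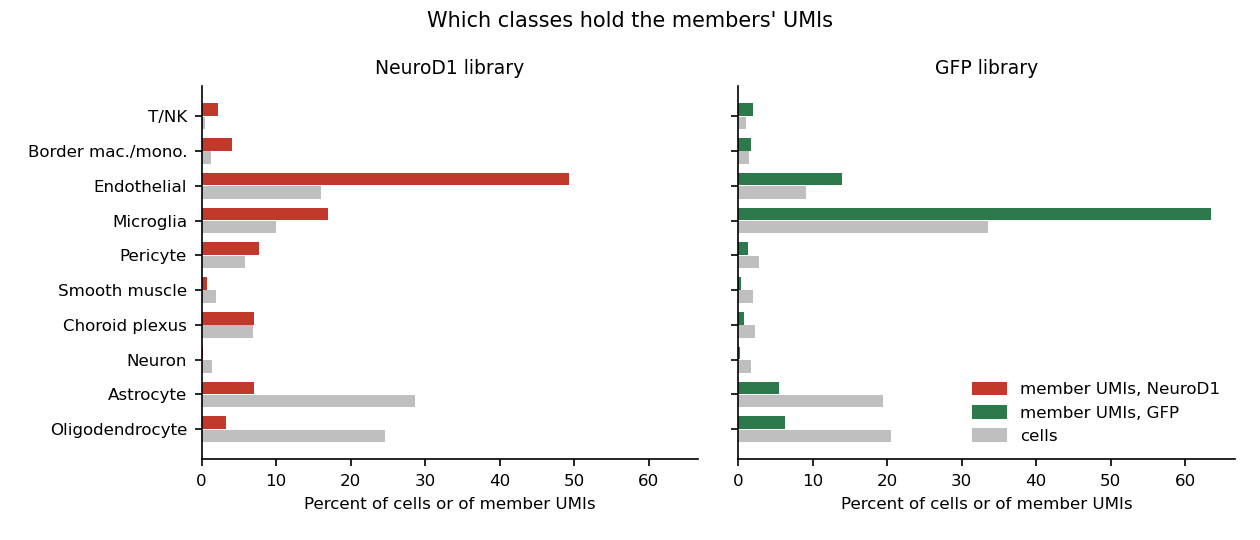
Percent of the library's member UMIs (coloured) and of its cells (grey) in 10 classes, NeuroD1 library left and GFP library right, on the same axis. The longest coloured bar is endothelial in the NeuroD1 library at 49.3% and microglial in the GFP library at 63.5%.

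Astrocyte-like cells, the cells the vectors target, had less class I RNA in the NeuroD1 library for each of the 9 members with enough UMIs to compare. H2-D1 was at 50.1 CPM (592 UMIs) in the NeuroD1 library, against 533 CPM (1572 UMIs) in the GFP library, 10.6-fold lower (interval 9.67 to 11.7). H2-K1, the other classical heavy chain, was at 90.8 and 362 CPM, a ratio of 0.251 (interval 0.230 to 0.273), and the non-classical H2-T23, which presents leader peptides to NK cell receptors, at 4.82 and 51.2 CPM, a ratio of 0.0943 (interval 0.0682 to 0.129). B2m, the light chain common to all class I molecules, stood at 297 CPM in the NeuroD1 library, against 886 CPM in the GFP library (ratio 0.336, interval 0.319 to 0.353). The intervals of all 3 heavy chains lay below that of the light chain, although the difference between members was not tested.

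Among the peptide supply genes of astrocyte-like cells, Tap1 was at 4.91 CPM in the NeuroD1 library, against 37.6 CPM in the GFP library (ratio 0.130, interval 0.0933 to 0.181). Its transporter partner Tap2 was at 40.8 and 78.9 CPM, a ratio of 0.517 (interval 0.441 to 0.607), and Tapbp at 30.3 and 95.2 CPM, a ratio of 0.318 (interval 0.271 to 0.373). Psmb8 was at 6.17 CPM in the NeuroD1 library, against 63.4 CPM in the GFP library, 10.3-fold lower (interval 7.79 to 13.6), and Psmb9, the subunit LMP2, at 3.30 and 18.3 CPM, a ratio of 0.180 (interval 0.116 to 0.277). Nlrc5, the class I transactivator, had 1 UMI in the NeuroD1 library, against 9 in the GFP library (ratio 0.0277, interval 0.000633 to 0.20), too few for more than this count. By the rule used throughout (at least 1.5-fold, with 20 or more UMIs over both sums), 9 of 9 members were lower, at a median log2 ratio of -2.47. Over all 13321 genes compared in astrocyte-like cells, 25.6% were lower and 9.65% higher by the same rule, and the median was -0.16.

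Microglial RNA moved with this difference. The 14 microglia markers, all detected in both libraries, summed over astrocyte-like cells to 172 CPM in the NeuroD1 library, against 1635 CPM in the GFP library. That is 0.303% and 3.63% of their level in microglia-like cells, while the members stood at 9.53% and 16.7% of their own microglial level. The 9 lymphocyte markers summed to 15.1 CPM in the NeuroD1 library, with Cd3e at 0, and 31.5 CPM in the GFP library, with Cd3d at 0, and the 11 endothelial markers to 139.7 and 156 CPM. After subtraction of a free RNA profile scaled by Ttr, the 9 members were still lower, at a median of -3.11. The part of microglial RNA in the difference was not tested in any other way.

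Single cells showed the same contrast once depth was made equal. With every cell thinned to 500 UMIs, the smallest count in the files, 76.1% of astrocyte-like cells in the NeuroD1 library (interval 74.7 to 77.5) against 45.1% in the GFP library (interval 43.0 to 47.3) had no member UMI. Cells with 5 or more member UMIs made up 0.0544% in the NeuroD1 library, against 2.86% in the GFP library. At this depth 2.80% of them had an H2-D1 UMI in the NeuroD1 library (interval 2.29 to 3.39), against 18.8% in the GFP library (interval 17.2 to 20.5), and before thinning 11.9% and 37.6% had one. Neuron-like cells, a type known for low class I levels, had one at equal depth in 8.62% of cells in the NeuroD1 library (interval 4.91 to 13.8), against 13.1% in the GFP library (interval 8.76 to 18.6). Median depths before thinning were 2239 and 1188 UMIs in neuron-like cells and 2475 and 1144 UMIs in astrocyte-like cells. The astrocyte-like share was thus below that of neuron-like cells in the NeuroD1 library, and the intervals of both cell types overlapped in the GFP library. How much of these shares was background was not tested.

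Oligodendrocyte-like cells, the myelin-forming glia, had the lowest ratio of summed members among the 10 classes compared. The summed level of 279 CPM in the NeuroD1 library was 0.128 times the 2184 CPM of the GFP library (interval 0.122 to 0.133). H2-D1 was at 100 CPM in the NeuroD1 library, against 1314 CPM in the GFP library, 13.1-fold lower (interval 12.3 to 14.1). H2-K1 was at 46.0 and 201 CPM (ratio 0.230, interval 0.204 to 0.259), B2m at 102 and 587 CPM (ratio 0.173, interval 0.161 to 0.187) and H2-T23 at 2.60 and 21.3 CPM (ratio 0.122). Psmb8 had 16 UMIs in the NeuroD1 library, against 50 in the GFP library (1.54 and 15.2 CPM), and Psmb9 12 and 30. The exceptions were Tap2, at 6.34 CPM in the NeuroD1 library, against 7.01 CPM in the GFP library (ratio 0.905, interval 0.556 to 1.53), and Tapbp, at 19.1 and 25.6 CPM (ratio 0.747, interval 0.576 to 0.976).

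In oligodendrocyte-like cells 6 of 8 members were at least 1.5-fold lower, at a median of -2.74, against 15.6% of 12138 genes and a median of 0.03. Tap1 had 4 and 10 UMIs, and Nlrc5 had 0 UMIs in the NeuroD1 library, against 6 in the GFP library. Microglia markers again moved with the members, at 121 CPM in the NeuroD1 library, where Cst7 was at 0, and 1314 CPM in the GFP library, or 0.213% and 2.92% of their microglial level. The members stood at 5.03% and 17.1% of theirs. With free RNA removed, its share set from Ttr at 6.96% and 10.3%, the median was -2.41. How much of each member's level was free RNA was not tested. After thinning to 500 UMIs, 88% of oligodendrocyte-like cells in the NeuroD1 library, against 50.8% in the GFP library, had no member UMI.

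Microglia-like cells, the resident macrophages of the brain, had less heavy chain and immunoproteasome RNA in the NeuroD1 library, while Tap2 was not lower, nor was Tapbp except under median-ratio scaling. H2-D1 was at 959.6 CPM in the NeuroD1 library, against 5001 CPM in the GFP library, 5.21-fold lower (interval 5.01 to 5.43), and H2-K1 at 591 and 1328 CPM (ratio 0.445, interval 0.421 to 0.469). H2-T23 was at 137 and 248 CPM (ratio 0.551, interval 0.490 to 0.618) and B2m at 3262 and 5314 CPM (ratio 0.614, interval 0.599 to 0.629). Psmb8 was at 235 CPM in the NeuroD1 library, against 501 CPM in the GFP library (ratio 0.470, interval 0.430 to 0.512), and Psmb9 at 73.6 and 125 CPM (ratio 0.588, interval 0.50 to 0.688). The heavy chain H2-D1 stood apart from the other members, whose ratios were 0.445 or more. Tap1 was at 20.2 and 32.2 CPM (ratio 0.626, interval 0.455 to 0.851), whereas Tap2 was at 94.9 CPM in the NeuroD1 library, against 70.8 CPM in the GFP library (ratio 1.34, interval 1.14 to 1.57). Tapbp was at 167 and 147 CPM (ratio 1.13, interval 1.01 to 1.27) but turned to -0.24 on the log2 scale under median-ratio scaling, which shifts all microglial log2 ratios by -0.43 and puts Tap2 at 0.00.

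By the rule, 8 of 10 members were lower in microglia-like cells and none higher, at a median of -0.81. The 8 include Nlrc5, with 6 UMIs in the NeuroD1 library, against 28 in the GFP library and an interval that reached 1.10. Over 12023 genes 14% were lower and 40.3% higher, with a median of 0.41, so most members lay on the other side of the bulk of genes. The libraries were not level in this class: of 11 housekeeping genes 7 were lower and 2 higher in the NeuroD1 library, at a median of -0.69. The ribosomal gene Rps18 was at 464 CPM in the NeuroD1 library, against 1686 CPM in the GFP library, and the translation factor Eef1a1 at 637 and 1864 CPM. The H2-D1 ratio of 0.192 was below those of Rps18 (0.275) and Eef1a1 (0.342), and the B2m ratio of 0.614 was above them. Markers of other immune cells were also lower: the 10 border macrophage markers summed to 467 CPM in the NeuroD1 library, against 1678 CPM in the GFP library. The 9 lymphocyte markers summed to 15 CPM, with Cd3g, Trbc2 and Ms4a4b at 0, against 279 CPM with Cd3e at 0. Their part in the microglial values was not tested.

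Different clusters made up most of the microglia-like class in each library. Cluster 16, led by Cst7 and Trem2, genes known from plaque-associated microglia, held 16 cells of the NeuroD1 library, against 2645 of the GFP library. Cluster 11, which the cytokine genes Il1a and Tnf led, held 631 and 92. In cluster 10, led by the homeostatic genes Tmem119 and P2ry12, the libraries were about even at 565 and 571 cells. There the members summed to 4890.3 CPM in the NeuroD1 library, against 11046 CPM in the GFP library, with medians of 1393 and 839 UMIs per cell. H2-D1 was at 694 CPM in cluster 10 of the NeuroD1 library and 4343 CPM in that of the GFP library (ratio 0.160), H2-K1 at 459 and 1343 CPM (0.342) and B2m at 2857 and 4283 CPM (0.667). Tap2 was at 116 and 78.6 CPM (1.48, interval 1.03 to 2.17). The low H2-D1 and H2-K1 values of the NeuroD1 library were thus also present within homeostatic microglia-like cells, where 4 of 9 members were at least 1.5-fold lower against 12.8% of genes. In cluster 11 the sums were 5979 CPM in the NeuroD1 library, against 8751 CPM in the GFP library, and in the dividing cells of cluster 17, led by Ccnb2 and Top2a, 3364 and 11784 CPM. Members lower numbered 3 of 9 in cluster 11, against 21% of genes, and 7 of 8 in cluster 17, against 19.3%.

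**Figure D3:**
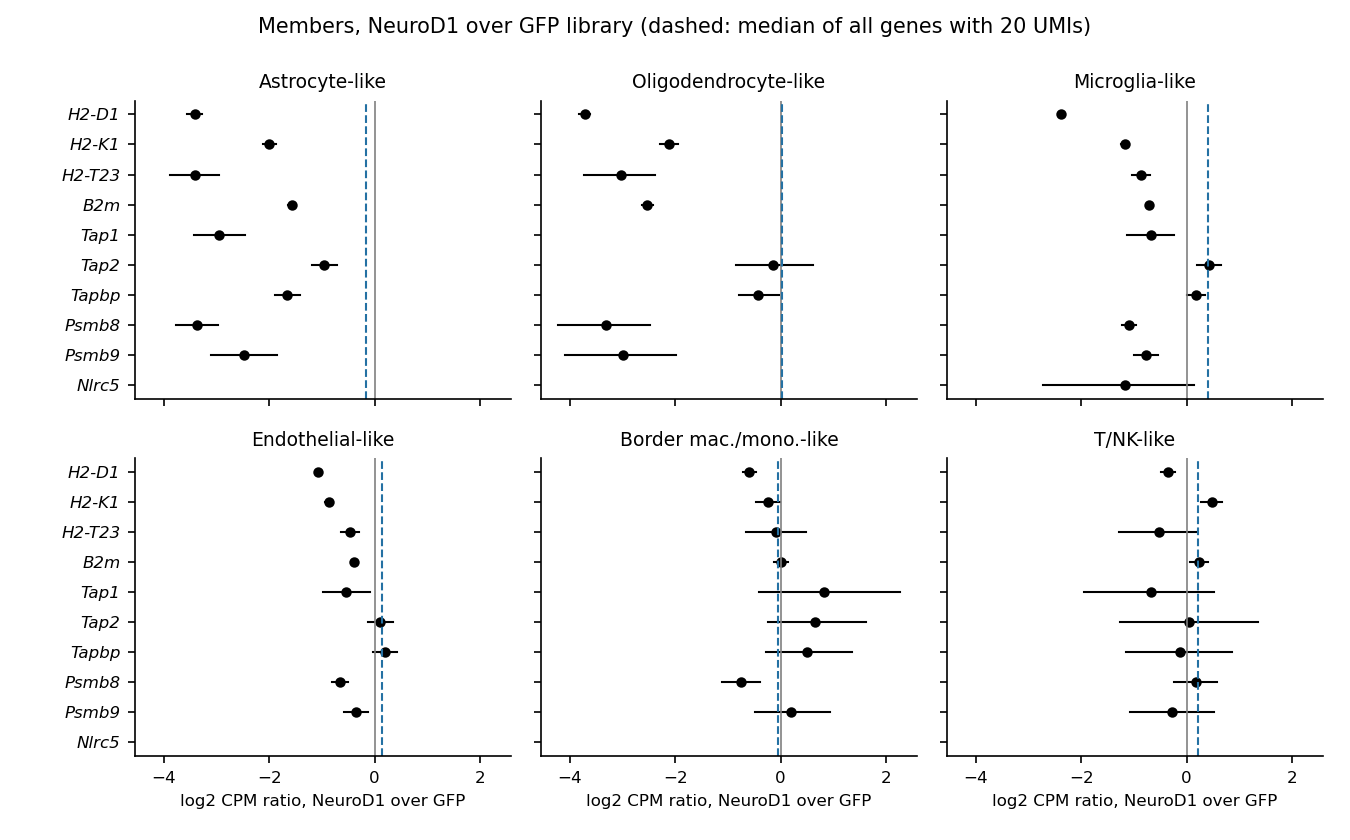
Log2 ratio of CPM, NeuroD1 over GFP library, for members with at least 20 UMIs in 6 classes; bars are exact 95% counting intervals, the grey line is 0 and the dashed line the median of all genes with at least 20 UMIs. Points lie left of both lines for all 9 members shown in astrocyte-like cells, and around them in T or NK lymphocyte-like cells.

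Endothelial cell-like cells, which line the vessels, had ratios closer to 1, and those of H2-D1 and H2-K1 were the lowest of the 9 members compared. H2-D1 was at 2954 CPM in the NeuroD1 library, against 6227 CPM in the GFP library, 2.11-fold lower (interval 2.05 to 2.16), and H2-K1 at 916 and 1662 CPM (ratio 0.551, interval 0.524 to 0.579). B2m was at 2531 and 3327 CPM (ratio 0.761, interval 0.735 to 0.787), H2-T23 at 221 and 305 CPM (ratio 0.725) and Psmb8 at 227 and 359 CPM (ratio 0.631, interval 0.568 to 0.703). Tap2 was at 142 CPM in the NeuroD1 library, against 131 CPM in the GFP library (ratio 1.08, interval 0.913 to 1.28) and Tapbp at 174 and 152 CPM (ratio 1.15, interval 0.986 to 1.35). By the rule 3 of 9 members were lower (H2-D1, H2-K1 and Psmb8), at a median of -0.47, against 12.5% of 11681 genes lower, 21.9% higher and a median of 0.15. Of 10 housekeeping genes 4 were lower and none higher here (median -0.28), with Eef1a1 at a ratio of 0.577 and Rps18 at 0.559, near that of H2-K1. Microglia markers summed to 186 CPM here in the NeuroD1 library, against 1587 CPM in the GFP library, 0.328% and 3.53% of their microglial level, while the members were at 132% and 96.9% of theirs.

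The mural cells of the same vessels also had less H2-D1 and H2-K1 RNA in the NeuroD1 library. In pericyte-like cells H2-D1 was at 1648 CPM in the NeuroD1 library, against 2689 CPM in the GFP library (ratio 0.613, interval 0.563 to 0.667), while B2m was at 1523 and 1564 CPM (ratio 0.973, interval 0.876 to 1.08). Only H2-D1 and H2-K1 of 9 members were lower by the rule and none was higher, against 16.8% of genes lower and 23.7% higher. Of 10 housekeeping genes 6 were lower and 1 higher in this class (median -0.60), with Rps18 at a ratio of 0.588 and Eef1a1 at 0.592, as low as H2-D1. The microglia markers summed to 221 CPM in the NeuroD1 library, against 2031 CPM in the GFP library, and the endothelial markers to 13047 and 6179.7 CPM. Part of this class, cluster 19, had all 11 endothelial markers raised, and its summed member level was 6035 CPM in the NeuroD1 library, against 12703 CPM in the GFP library. The other pericyte-like cluster stood at 1915 and 2589 CPM. In smooth muscle cell-like cells 4 of 7 members were lower and none higher, against 15.5% of genes lower and 19.7% higher, among them H2-D1 at 204 and 591 CPM and Psmb8 at 17.5 and 66.5 CPM. The microglia markers moved with them, at 150.3 CPM in the NeuroD1 library, with Cst7 at 0, and 1753 CPM in the GFP library, and 2 of 9 housekeeping genes were lower. The part of microglial or endothelial RNA in the values of mural cells was not tested.

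T or NK lymphocyte-like cells, which carry the receptors for class I molecules, had nearly equal summed levels, at a ratio of 0.998 (interval 0.939 to 1.06). Within the sum the heavy chains went opposite ways: H2-D1 was at 6708 CPM in the NeuroD1 library, against 8531 CPM in the GFP library (ratio 0.786, interval 0.716 to 0.863), whereas H2-K1 was at 4138 and 2979 CPM (ratio 1.39, interval 1.21 to 1.59). B2m was at 5168 and 4398 CPM (ratio 1.17, interval 1.04 to 1.32) and Psmb8 at 924 and 819 CPM (ratio 1.13, interval 0.853 to 1.49). Of 9 members Tap1, with 10 and 18 UMIs, was lower by the rule and none was higher, against 16.3% of 2048 genes lower and 30.1% higher. In every cell of this class at least 1 member UMI was found at 500 UMIs per cell, with medians of 10.0 in the NeuroD1 library, against 9.0 in the GFP library. The 0 of 61 and 0 of 123 cells without one allow shares of up to 5.87% and 2.95%. The co-receptor gene Cd8a was at 546 CPM in the NeuroD1 library, against 195 CPM in the GFP library (ratio 2.80, interval 1.73 to 4.65), and its partner Cd8b1 at 616 and 546 CPM (ratio 1.13, interval 0.799 to 1.60).

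Border macrophage or monocyte-like cells had a summed ratio of 0.825 (interval 0.781 to 0.872). H2-D1 was at 2939 CPM in the NeuroD1 library, against 4426 CPM in the GFP library (ratio 0.664, interval 0.609 to 0.725), H2-K1 at 1049 and 1244 CPM (ratio 0.843) and B2m at 3469 and 3454 CPM (ratio 1.0, interval 0.917 to 1.10). By the rule 2 members were lower (H2-D1 and Psmb8) and 2 higher (Tap1 and Tap2) of 9, against 19.3% of genes lower and 18.2% higher. The intervals of Tap1 (0.75 to 4.80) and Tap2 (0.851 to 3.08) included 1.

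Neuron-like cells had few class I UMIs in both libraries. H2-D1 was at 118 CPM (54 UMIs) in the NeuroD1 library, against 379 CPM (111 UMIs) in the GFP library (ratio 0.310, interval 0.220 to 0.433), H2-K1 at 43.6 and 109 CPM and B2m at 133 and 406 CPM. By the rule 3 of 4 members were lower and none higher, against 25.6% of genes lower and 35.6% higher. Microglia markers summed to 403 CPM in the NeuroD1 library, with Cst7 at 0, and 2506 CPM in the GFP library, or 0.710% and 5.57% of their microglial level. The members stood at 6.96% and 8.05% of theirs, and the part of microglial RNA was not tested. The class was filled from different clusters, cluster 14 with 167 and 73 cells and cluster 28 with 7 and 125. Choroid plexus epithelium-like cells had 4 of 9 members lower and none higher, against 34.8% of genes lower and 8.62% higher, so that many genes were lower there. In them H2-D1 was at 36.4 CPM in the NeuroD1 library, against 194 CPM in the GFP library (ratio 0.188), and Psmb8 at 1.94 and 26.7 CPM (25 and 30 UMIs, ratio 0.0729). The microglia markers summed there to 114 CPM in the NeuroD1 library, with Cst7 at 0, and 1412 CPM in the GFP library, and 7 of 11 housekeeping genes were lower (median -0.68). Their part in these values was not tested.

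The members were also read gene by gene over the 9 classes with at least 100 cells in each library. H2-D1, H2-K1 and Psmb8 had a ratio interval below 1 in most classes, and Tap2 and Tapbp in few. The ratio itself was below 1 in 8 of 8 classes for H2-T23 and Psmb8, and in 8 of 9 for B2m. For Tap1 it was below 1 in 5 of 6, for Psmb9 in 6 of 7, for Tapbp in 6 of 9 and for Tap2 in 4 of 8. Intervals are wider where UMIs are fewer, so the interval counts also follow depth. H2-D1 and H2-K1 had a ratio interval below 1 in 9 of 9 classes, and Psmb8 in 7 of 8. B2m had one in 6 of 9, Psmb9 in 4 of 7, H2-T23 in 4 of 8 and Tap1 in 3 of 6. Tap2 had an interval below 1 in 1 class, astrocyte-like, and above 1 in 1 class, microglia-like, of 8, and Tapbp below 1 in 2 classes and above 1 in 1 of 9, the microglia-like class, where another scaling turned it. Over all genes compared, the share with an interval below 1 ran from 9.33% in pericyte-like to 29.8% in astrocyte-like cells, and was 26.6% in choroid plexus epithelium-like, 19.8% in neuron-like, 19.3% in oligodendrocyte-like, 15.1% in microglia-like, 12.4% in endothelial cell-like, 12.1% in border macrophage or monocyte-like and 9.43% in smooth muscle cell-like cells. The share with an interval above 1 was 44.6% in microglia-like, 25.9% in neuron-like, 21.2% in endothelial cell-like, 19.6% in oligodendrocyte-like, 15.2% in astrocyte-like, 9.56% in smooth muscle cell-like, 9.49% in pericyte-like, 7.84% in border macrophage or monocyte-like and 3.33% in choroid plexus epithelium-like cells. H2-D1 ratios ran from 0.0761 in oligodendrocyte-like to 0.664 in border macrophage or monocyte-like cells. Tap2 ratios ran from 0.517 in astrocyte-like to 1.57 in border macrophage or monocyte-like cells. In the smaller T or NK lymphocyte-like class, left out of these counts, H2-K1 was higher (ratio 1.39, interval 1.21 to 1.59). The housekeeping gene Eef1a1 also had an interval below 1 in astrocyte, microglia, oligodendrocyte, pericyte and smooth muscle cell-like cells. It did not have one in neuron-like cells. By the 1.5-fold rule Eef1a1 was lower in endothelial cell-like and choroid plexus epithelium-like cells as well. Its ratio in microglia-like cells was 0.342, against 0.445 for H2-K1.

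The clusters of a class were also compared one by one, since the libraries filled them unequally. Of the astrocyte-like cells, cluster 0 held 2337 cells from the NeuroD1 library, against 131 from the GFP library, and cluster 3 134 and 792. Of the oligodendrocyte-like cells, cluster 7 held 2864 and 786 and cluster 8 128 and 1469, and of the endothelial cell-like cells cluster 4 held 1675 and 128 and cluster 5 271 and 877. In cluster 2 of the astrocyte-like cells, where the libraries had similar depths (medians of 795 and 889 UMIs per cell), the members summed to 541 CPM in the NeuroD1 library, against 2134 CPM in the GFP library. There 9 of 9 members were lower at a median of -1.76, against 22% of genes, with H2-D1 at 56.2 and 577 CPM. Cluster 3, led by Slc1a4 and the reactive astrocyte gene Serpina3n, had 573 and 2292 CPM, with 8 of 8 members lower against 20.9% of genes. Cluster 0 had 508 and 1314 CPM, with 8 of 9 members lower against 25.8% of genes, and Tap1, at 41 UMIs in the NeuroD1 library, against 0 in the 131 cells of the GFP library, higher by the rule against 20.1% of genes (a count of 0 allows up to 3 UMIs). In the oligodendrocyte-like clusters 7 and 8 the sums were 279.6 and 331 CPM in the NeuroD1 library against 2035 and 2318 CPM in the GFP library. In cluster 7 the rule gave 6 of 8 members lower, against 15% of genes, and in cluster 8 5 of 6, against 19.1%. In each of these glial clusters the members' sum was lower in the NeuroD1 library than in the GFP library. Endothelial cluster 5, again at similar depths (860.0 and 970.0), had 6454 CPM in the NeuroD1 library, against 11663 CPM in the GFP library, with 3 of 9 members lower against 19.9% of genes. In cluster 4, at 7002 and 15131 CPM, 5 of 9 were lower against 20.3%.

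**Figure D4:**
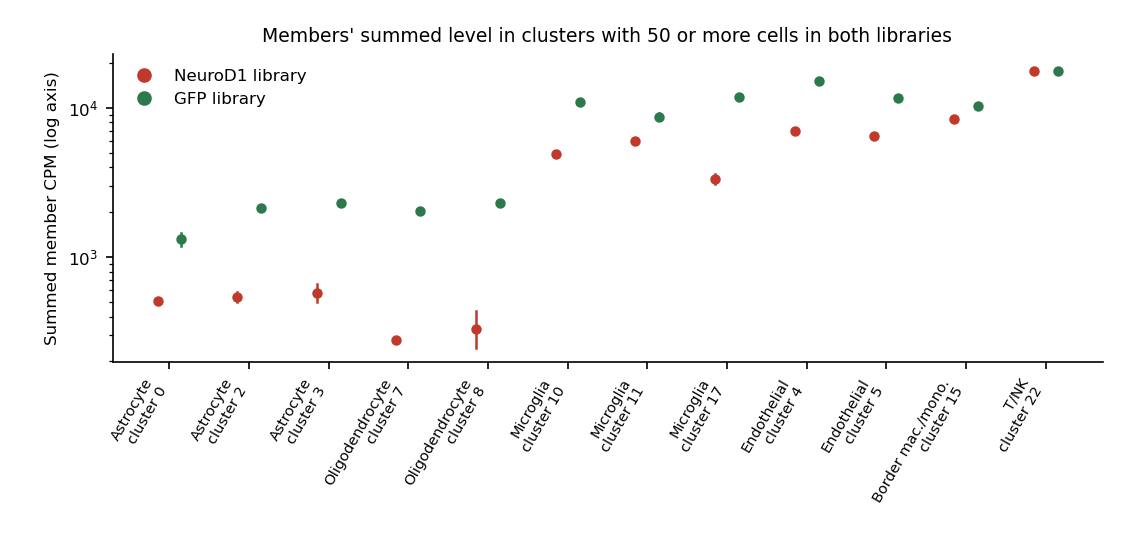
Summed level of the 10 members (CPM, log axis) in the clusters of 6 classes with at least 50 cells in each library, NeuroD1 library (red) left of the GFP library (green); bars are exact Poisson 95% intervals. The red point is below the green one in 11 of the 12 clusters shown by more than the intervals, and level with it in the T/NK cluster at 17739 and 17779 CPM.

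Within-library ratios between members do not depend on how the libraries are scaled. They are ratios of UMI counts, not corrected for gene length, and are compared between libraries and classes only. The ratio of the 3 immunoproteasome subunits (Psmb8, Psmb9 and Psmb10) to the 3 constitutive ones they replace (Psmb5, Psmb6 and Psmb7) was highest in T or NK lymphocyte-like cells, at 2.49 in the NeuroD1 library, against 3.02 in the GFP library, and lowest in oligodendrocyte-like cells, at 0.0260 and 0.0695. In astrocyte-like cells it was 0.125 (interval 0.116 to 0.135) in the NeuroD1 library, against 0.284 (interval 0.255 to 0.315) in the GFP library, and in microglia-like cells 1.01 and 1.22. It was lower in the NeuroD1 library in 8 of 10 classes, with separate intervals in 5. The exceptions were pericyte-like cells, at 0.528 and 0.505, and border macrophage or monocyte-like cells, at 1.80 and 1.79.

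Heavy chains and light chain also stood in different proportions. H2-K1 over H2-D1 was higher in the NeuroD1 library in 10 of 10 classes, with separate intervals in 6, for example 1.81 and 0.680 in astrocyte-like cells, 0.616 and 0.266 in microglia-like cells and 0.617 and 0.349 in T or NK lymphocyte-like cells. B2m over the sum of H2-D1 and H2-K1 was higher in the NeuroD1 library in 9 of 10 classes, each with separate intervals, at 2.11 and 0.990 in astrocyte-like cells and 2.10 and 0.840 in microglia-like cells. Tap2 over Tap1 was 8.31 in the NeuroD1 library, against 2.10 in the GFP library in astrocyte-like cells, 4.71 and 2.20 in microglia-like cells, then 4.56 and 2.91 in endothelial cell-like cells, and was higher in 7 of 9 classes, with separate intervals in 3. The strain background and H2 haplotype of the mice are not given in the labels, and whether reads of the heavy chain genes map alike in both libraries was not tested.

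**Figure D5:**
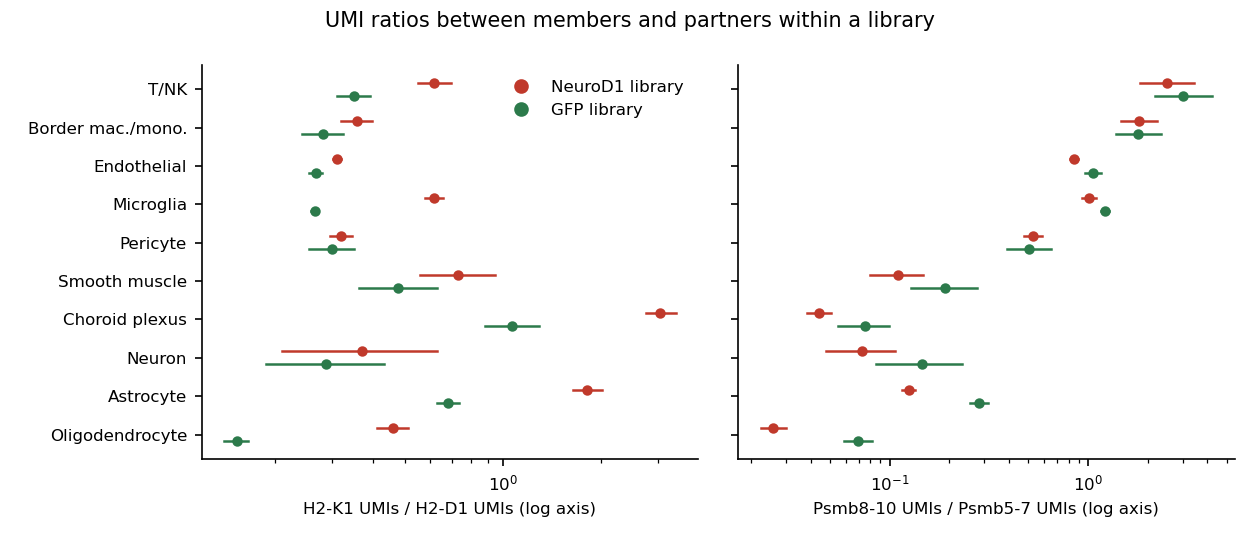
UMI ratios within each library on log axes, H2-K1 over H2-D1 (left) and immunoproteasome over constitutive subunits (right), in 10 classes of the NeuroD1 (red) and GFP (green) libraries; bars are exact 95% counting intervals. H2-K1 over H2-D1 is further right in the NeuroD1 library in all 10 classes, and the subunit ratio further left in 8 of them.

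The rest of the pathway was read from lists of related genes, beside 25.6% of all genes lower and 9.65% higher in astrocyte-like cells, where 5 of 11 housekeeping genes were lower. None of 8 other proteasome genes passed 1.5-fold in astrocyte-like cells (median 0.02). The constitutive subunit Psmb6 was at 303 CPM in the NeuroD1 library, against 312 CPM in the GFP library. Psmb10, another immunoproteasome subunit, was at 58.5 and 70.8 CPM. The intervals of Psmb10 and Psme2 (ratio 0.703, interval 0.596 to 0.832) lay below 1, and those of Psme3 and Pomp (ratio 1.45, interval 1.30 to 1.61) above 1. Of 9 peptide loading and trimming genes 4 were lower (Erap1, Tapbpl, Uggt1 and Sec61a1), and the chaperone calreticulin (Calr) was at 734 and 691 CPM. Among the other class I heavy chains 5 of 9 were lower, with H2-Q7 at 3 UMIs in the NeuroD1 library, against 51 in the GFP library. In microglia-like cells, with 14% of all genes lower and 40.3% higher, 7 of 13 other heavy chains were lower and 2 higher, the class I-like genes Cd1d1 and Hfe. Hfe, an iron regulator that pairs with B2m, was at 117 CPM in the NeuroD1 library, against 42.0 CPM in the GFP library (ratio 2.78, interval 2.35 to 3.30), while H2-Q7 was at 20.9 and 72.6 CPM and H2-M3 at 43.6 and 112 CPM.

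Factors that carry interferon signals to these promoters were counted beside all genes in astrocyte-like and microglia-like cells. In astrocyte-like cells 7 of 15 transcription factor genes of the list were lower and none higher, against 25.6% and 9.65% of all genes and 5 of 11 housekeeping genes lower. Among them was Irf9, part of an interferon-activated complex, at 9.14 CPM in the NeuroD1 library, against 38.6 CPM in the GFP library (ratio 0.237, interval 0.180 to 0.311). In microglia-like cells Stat2 was among the lower ones, and 8 of 15 were higher, against 40.3% of all genes. Among those were Irf1 at 199 CPM in the NeuroD1 library, against 112 CPM in the GFP library (ratio 1.78), Irf8 at 366 and 168 CPM (ratio 2.18) and Rfx5, a subunit of the factor that binds the X box. On the log2 scale they were at 0.83, 1.13 and 0.73, where the median of all genes was 0.41. Median-ratio scaling shifts all microglial log2 ratios by -0.43. Ifngr1, a chain of the interferon gamma receptor, was at 592 CPM in microglia-like cells of the NeuroD1 library and 242 CPM in those of the GFP library (ratio 2.45, interval 2.28 to 2.63). In endothelial cell-like cells Irf1 was at 106 CPM in the NeuroD1 library, against 59.1 CPM in the GFP library.

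Interferon response genes outside the pathway were lower together with the members in the glial classes. In astrocyte-like cells 20 of 20 were lower, against 25.6% of all genes, at a median of -3.84, with Ifit3 at 8.71 CPM in the NeuroD1 library, against 168 CPM in the GFP library. In oligodendrocyte-like cells 15 of 16 were lower, against 15.6% of all genes (median -3.73). In microglia-like cells 16 of 21 were lower, against 14%, and 2 higher, Gbp3 and Gbp7, against 40.3% (median -1.84). Endothelial cell-like cells had 8 of 19 lower, against 12.5% of all genes (median -0.49), with Ifit3 at 144 and 399 CPM but Isg15 at 259 and 253 CPM. In T or NK lymphocyte-like cells 9 of 10 were lower, against 16.3% of all genes (median -1.61), although the members' sum was level there. The 14 microglia markers summed to 361 CPM in this class in the NeuroD1 library, against 2183 CPM in the GFP library.

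Most interferon gamma UMIs were in lymphocyte-like cells, and those of interferon beta were few. Ifng, interferon gamma, had 32 UMIs in the NeuroD1 library, all in T or NK lymphocyte-like cells, and 87 in the GFP library, 82 of them in that class. Within that class it was at 282 CPM in the NeuroD1 library, against 639 CPM in the GFP library (ratio 0.441, interval 0.283 to 0.670). Ifnb1, interferon beta, had 1 UMI in the NeuroD1 library, against 15 in the GFP library, 14 of those in microglia-like cells. Ifna4 and Ifnl2 had 0 UMIs in both libraries.

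Vector-positive cells allow a comparison inside 1 library. Of the astrocyte-like cells of the GFP library, 1358 had a vector GFP UMI and 807 had none, with medians of 1224 and 1007 UMIs per cell. Their members summed to 2008 CPM in GFP-positive cells and 2405 CPM in GFP-negative cells, a ratio of 0.835 (interval 0.793 to 0.879). H2-D1 was at 492 CPM in GFP-positive cells and 622 CPM in GFP-negative cells (ratio 0.791, interval 0.714 to 0.876), B2m at 834 and 1004 CPM (ratio 0.830, interval 0.767 to 0.899) and H2-K1 at 361 and 373 CPM (ratio 0.967, interval 0.852 to 1.10). The sum was also lower within cluster 2 (ratio 0.851, interval 0.788 to 0.920) and cluster 3 (ratio 0.811, interval 0.755 to 0.872). In cluster 2 the ratios of H2-K1, Tap1, Tap2 and Tapbp were above 1, with intervals that included 1. Genes outside the members differed as well. Over all astrocyte-like cells Serpina3n had a ratio of 0.623 (interval 0.531 to 0.733) and C4b 0.667 (interval 0.611 to 0.728), while Gfap was at 1.07 (interval 1.02 to 1.12). Cells of 1 library are not replicates, and a cell with no GFP UMI may still carry the vector. Both sets stood above the 528 CPM of astrocyte-like cells in the NeuroD1 library.

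Over 23 class sums of the 2 libraries, 12714 genes were ranked by Pearson correlation of log2(CPM + 1) with the mean profile of the members, as a description only, since the sums share libraries and depth. The 10 most alike were Trim30a, Lgals9 and H2-Q4 at 0.94, Sp100, Srgn, H2-M3 and Gch1 at 0.93, and Gbp9, Akap13 and Rtp4 at 0.92. H2-Q4 and H2-M3 are themselves class I heavy chains. Each member's own correlation with the mean of the other members was 0.98 for H2-K1, 0.97 for B2m and Psmb8, 0.96 for Psmb9, 0.94 for H2-T23, 0.92 for H2-D1 and 0.89 for Tap1. Tap2 at 0.78, Tapbp at 0.75 and Nlrc5, with 87 UMIs in all, at 0.70 were least like the rest. Calr reached 0.51 and Canx -0.28.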

How the data were processed

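Single hippocampal cells of 1 NeuroD1 and 1 GFP library (3 mice each) were analysed from the deposited UMI counts per gene and barcode. The authors' chain names FastQC, fastp, cutadapt, STAR, featureCounts and mm39, per the submitters' processing notes, with neither roles nor versions. Labels name both a SCOPE-chip and 10x Genomics. The listed barcodes had at least 500 UMIs. Barcodes needed 200 genes or more and no more than 20% mitochondrial UMIs, and 485 (3.65%) and 556 (4.78%) Scrublet doublets were removed from the NeuroD1 and GFP libraries.

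Cells were clustered with scanpy 1.11.5 on 3000 variable genes (30 principal components, 15 neighbours, Leiden resolution 1.0, seed 0), with sex, vector, class I and interferon genes left out. A class is called "X-like" where at least 3 of its markers were raised. These names were rebuilt here. Haemoglobin genes were passed over among the leading genes, a choice made after seeing the data. Members and lists were chosen with earlier results of these data known.

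UMIs were summed per class and library and given per 1000000 UMIs (CPM) with exact Poisson 95% intervals. Ratios of NeuroD1 over GFP have exact conditional binomial intervals and shares Clopper-Pearson intervals. All cover counting error only, and a count of 0 allows up to 3 UMIs. A gene counts as lower or higher from 1.5-fold, on log2 with 0.5 UMI added, with at least 20 UMIs in both sums. All members are named in classes with at least 100 cells in each library, list genes with at least 20 UMIs may be named (some are not reported here), and the 10 genes most like the members' mean profile are named. Intervals were tested on simulated data. Alternatives covered cell filters, doublets, clustering, thinning to 500 UMIs, scaling, UMI minimum, free RNA removal and shared clusters.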

Additional observations from a re-analysis of the deposited data

How the results depend on the processing

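Over 13 other settings and 1 more chosen after seeing the data, 126 values of the comparisons stayed within their 95% intervals (counts within 1.5-fold), 14 moved further and 0 changed direction. Of values for single members, 427 stayed within their intervals and 68 moved further. Members with at least 1.5-fold kept their sign in all 356 values, while 8 values of members under 1.5-fold changed sign (Tap2, Tapbp or Psmb9), among them Tapbp in microglia-like cells under median-ratio scaling. The microglia-like share of member UMIs in the NeuroD1 library (16.9%) was 16.2% at Leiden resolution 0.5 and 22.8% with each cell thinned to 500 UMIs. In the GFP library (63.5%) it was 64.2% with at most 10% mitochondrial UMIs, 64.6% with at least 500 genes per cell, 62.1% with doublets kept, 66.0% at resolution 0.5, 59.2% thinned, and 67.5% with the unnamed cluster counted as microglia-like, the alternative chosen after seeing the data. The immunoproteasome ratio of microglia-like cells in the NeuroD1 library (1.01) was 0.905 with doublets kept and 1.21 thinned, and in the GFP library (1.22) it was 1.38 thinned. The members' median log2 ratio in microglia-like cells was -1.24 under median-ratio scaling, against -0.81. Members lower numbered 3 of 4 in oligodendrocyte-like cells with at least 100 UMIs, which leaves fewer members, and 4 of 9 in microglia-like cells in the shared cluster 10. The cause of the other shifts was not tested. No paired analysis was possible because each group is 1 library, so no library could be left out. Depth limits Nlrc5 in most classes, and Tap1 and Psmb9 in neuron-like cells.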
